A study of Mus musculus with 32 samples.

Results

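The untreated anterior prostate (AP) and the untreated dorsal lateral prostate (DLP) of C57/BL6 mice were compared, using 8 of the 32 RNA-seq libraries of a study of a mouse model of benign prostatic hyperplasia. The 4 AP control libraries carried the numbers 6, 7, 8 and 9, and the 4 DLP control libraries the numbers 7, 8, 9 and 10. They were chosen by their labels alone. Control mice were male and had received no hormone, and their lobes were flash frozen on removal. The rest of the series held the same lobes after implants of 25 mg testosterone and 2.5 mg oestrogen for 2 weeks (T+E2), the prostatic urethra with and without T+E2, and embryonic urogenital sinus in culture. The T+E2 lobes (4 libraries each) are used here only to set each lobe difference beside its value in other libraries. The labels give neither the age of the mice, nor whether lobes were pooled, nor whether each library is a separate animal, so the p-values reflect variation among these 8 libraries, which may be technical. Whether a number shared by an AP and a DLP library marks the same mouse is likewise not labelled.

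The mouse prostate consists of paired lobes that bud from the urogenital sinus at different positions and differ in branching and in the proteins they secrete. The anterior lobe, or coagulating gland, lies along the seminal vesicle and secretes transglutaminase 4, the enzyme that crosslinks seminal vesicle proteins into the copulatory plug. The dorsal and lateral lobes lie behind and beside the urethra, and secretory proteins such as probasin and the microseminoprotein encoded by Msmb are known from them. Which transcripts differ between the lobes without hormone treatment sets the baseline on which any treatment acts.

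Values are TPM, a length-corrected share of a library's transcripts on a fixed total, from which sequencing depth cannot be read. Of the table's 13780 genes, 12289 to 13113 reached 1 TPM per library. On log2(TPM + 1) over the 12865 tested genes, Pearson's r was 0.981 to 0.993 between AP libraries and 0.984 to 0.990 between DLP libraries, and 0.905 to 0.946 between lobes. AP library 9 lay nearest to the DLP libraries (r of 0.938 to 0.946, against 0.905 to 0.924 for AP libraries 6, 7 and 8). Both lobes held the defining transcripts of prostate epithelium. Hoxb13 had at least 196 TPM and Pbsn at least 33174 TPM in each of the 8 libraries.

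The DLP libraries also held abundant seminal vesicle secretory transcripts. The 10 measured genes of the list made up 23.7, 23.3, 17.2 and 21.03% of TPM in DLP libraries 7, 8, 9 and 10, and 0.0749, 0.0850, 0.00413 and 5.42% in AP libraries 6, 7, 8 and 9. All 4 DLP libraries were above all 4 AP libraries, and AP library 9 stood above the other AP libraries. The difference of means had an exact two-sided permutation p of 0.0286 (adjusted p = 0.0393 over 11 shares), the smallest that 70 assignments of 8 libraries allow. The share was also high in the DLP T+E2 libraries (15.3% to 26.7%) and at most 0.445% in the urethra control libraries. Whether these transcripts were made in the lobe or came with adjacent tissue was not tested. Because TPM sum to a constant, the part of a DLP library taken by these transcripts lowers the TPM of every other gene there, so directions are also given after rescaling each library without the seminal vesicle and prostate secretory genes, which moved the median of all genes by -0.36 on the log2 scale.

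Summed shares of marker genes of some other tissues differed as well. Adipocyte genes made up 0.0112 ± 0.00258% of TPM in AP and 0.0513 ± 0.0219% in DLP, genes of Schwann cells and neurons 0.00849 ± 0.00121% of TPM in AP and 0.0431 ± 0.0116% in DLP, and the 6 measured genes of epididymis and vas deferens 0.0915 ± 0.00924% of TPM in AP and 0.435 ± 0.0381% in DLP. In each of these lists the 4 and 4 libraries did not overlap (exact permutation p = 0.0286, adjusted p = 0.0393). Of the 6 genes of epididymis and vas deferens, 5 were called higher in DLP and 1 in AP by the fit described below. Among them, Akr1b7 and Crisp1 averaged 1780 and 1017 TPM in DLP. Whether the lobe itself or adjacent tissue made the transcripts of these lists was not tested. Smooth muscle genes made up 0.714 ± 0.0902% of TPM in AP and 0.837 ± 0.0829% in DLP (exact permutation p = 0.114, adjusted p = 0.14), and skeletal muscle genes 0.0483 ± 0.00454% of TPM in AP and 0.0597 ± 0.0308% in DLP (exact permutation p = 0.886). Prostate secretory proteins made up 11.4 ± 0.701% of TPM in AP and 11.98 ± 2.89% in DLP (exact permutation p = 0.771). In bulk tissue, fewer cells of a type and less RNA per cell cannot be told apart.

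**Figure D1:**
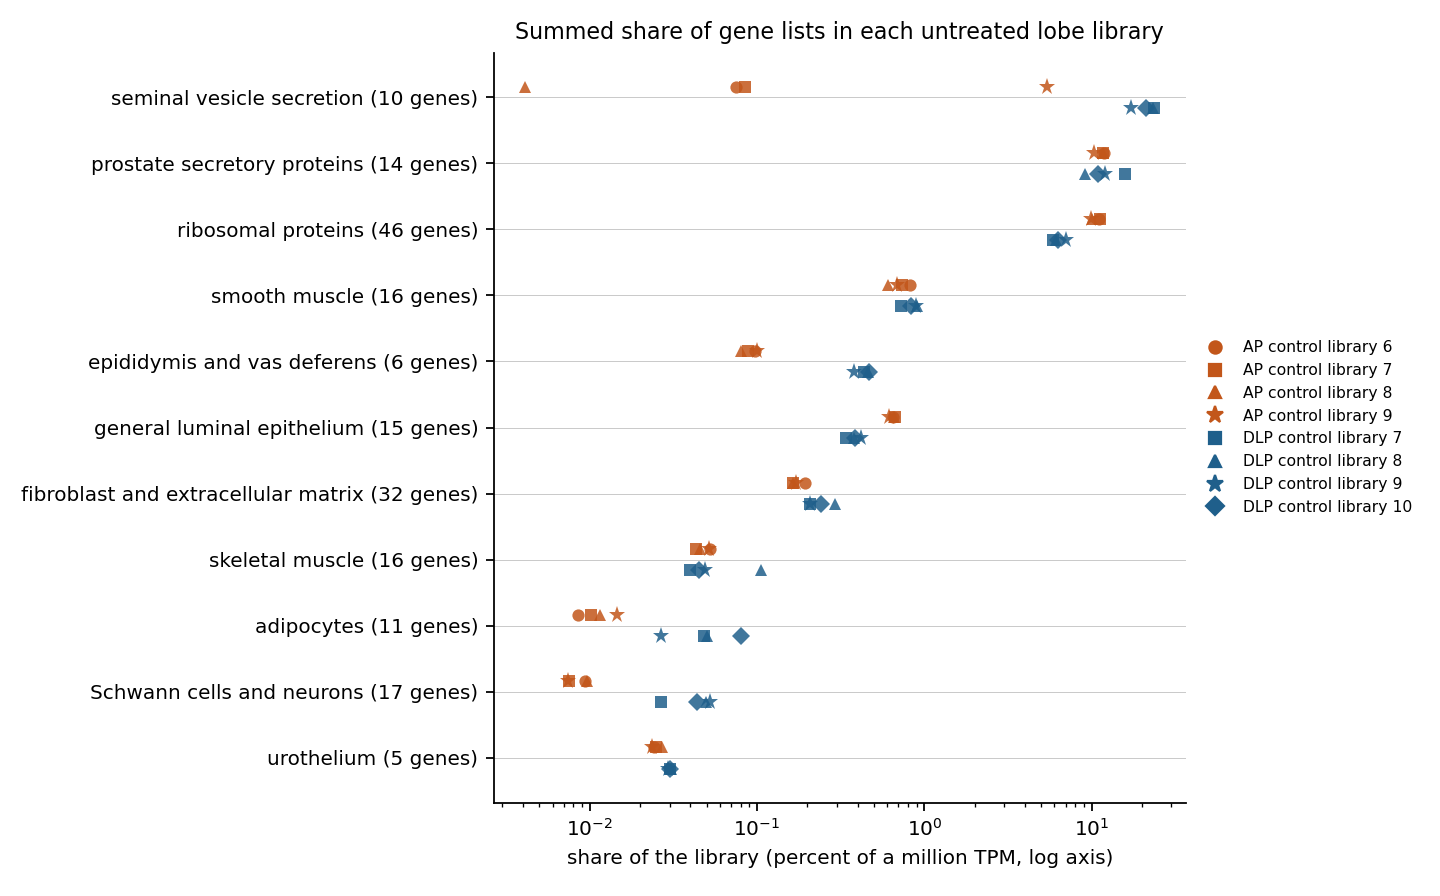
Summed share of TPM (x axis, percent, log axis) of 11 gene lists (y axis, with the number of measured genes) in the 4 AP control libraries (orange) and the 4 DLP control libraries (blue), each library with its own symbol. Seminal vesicle secretion separates the lobes most widely, with AP library 9 (orange star) at 5.42% between the other AP libraries and the DLP libraries, while ribosomal protein and general luminal genes are higher in AP.

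Most tested genes differed between the lobes. Limma on log2(TPM + 1), with Benjamini-Hochberg adjustment over 12865 genes, called 7426 genes (57.7%), 4531 higher in AP (35.2%) and 2895 higher in DLP (22.5%). Large differences went mostly the other way. At least 2-fold differences were called for 234 genes higher in AP (1.82%) and 825 higher in DLP (6.41%), and at least 4-fold differences for 47 and 271. The 4 and 4 values did not overlap for 6865 genes (53.4%). The balance of directions depended on the scale. Rescaling without the secretory genes called 1218 genes higher in AP (9.47%) and 7040 higher in DLP (54.7%). Counts of list members given below, as deposited and after rescaling, stand beside the shares of all tested genes given here for each scale. Median-of-ratios rescaling called 3908 and 3737. Without AP library 9, 4303 genes were higher in AP and 2752 higher in DLP. Differences below are AP minus DLP on the log2(TPM + 1) scale ± SE with limma's adjusted p, values per library run through AP libraries 6, 7, 8 and 9 or DLP libraries 7, 8, 9 and 10 in that order, and a gene is called higher only where it passed an adjusted p of 0.05.

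Renin led the genes higher in AP. The leading genes of each direction were chosen among those whose lobes did not overlap, so non-overlap is no separate result for them. Ren1, which encodes the aspartyl protease that cleaves angiotensinogen, stood at 4953, 5707, 5408 and 5465 TPM in AP and at 220.2, 214, 3.35 and 9.8 TPM in DLP. The AP libraries lay close together and far above every DLP library, while the DLP values spread 65.7-fold, with libraries 7 and 8 high and 9 and 10 low. The difference was 7.12 ± 1.07 (adjusted p = 1.90e-04), and 6.74 after rescaling. Ren2, a nearly identical copy, differed by 6.25 ± 0.87 (adjusted p = 1.18e-04). Reads of the copies may be shared between them, and C57BL/6 mice are known to carry a single renin gene, so Ren2 is no separate result. In the urethra control libraries Ren1 averaged 0.785 TPM.

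Genes next to Ren1 were higher in AP too. In RefSeq's order of the tested genes, 5 neighbours on chromosome 1, Gm19461, Golt1a, Kiss1, Ren1 and Etnk2, were each called and at least 2-fold higher in AP. Kiss1, which encodes the kisspeptin precursor, had 73.3, 69.4, 51.7 and 48.04 TPM in AP and 3.47, 3.1, 1.94 and 2.54 TPM in DLP. Its difference was 4.03 ± 0.16 (adjusted p = 2.41e-08). Golt1a, a Golgi transport gene, had 48.5, 52.2, 60.6 and 50.5 TPM in AP against 6.39, 6.11, 6.16 and 5.52 TPM in DLP, a difference of 2.93 ± 0.09 (adjusted p = 4.16e-09). Etnk2, an ethanolamine kinase gene, differed by 2.06 ± 0.12 (adjusted p = 2.70e-07) and Gm19461 by 1.14 ± 0.11 (adjusted p = 8.64e-06). On either side of the run, Plekha6 was higher in AP by less than 2-fold, 0.60 ± 0.10 (adjusted p = 4.28e-04), and Sox13 differed by -0.73 ± 0.10 (adjusted p = 1.04e-04), with Sox13 higher in DLP. Gm19461, Etnk2, Plekha6 and Sox13 are named for their place beside Ren1 after values were seen.

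The 250 bases before the start of Ren1 and of Golt1a are shown because these genes are neighbours that were both higher in AP. They come from RefSeq on GRCm38.p6, chr1:133350424-133350673 and chr1:133309573-133309822, both on the + strand. Capitals mark the letters TATAAA, known from promoters that bind the TATA-binding protein, and the core hexamer of androgen response elements, which reads TGTTCT as written and, when its complement is read backwards, AGAACA. Both motifs were searched on both strands and any overlaps were kept.
Ren1: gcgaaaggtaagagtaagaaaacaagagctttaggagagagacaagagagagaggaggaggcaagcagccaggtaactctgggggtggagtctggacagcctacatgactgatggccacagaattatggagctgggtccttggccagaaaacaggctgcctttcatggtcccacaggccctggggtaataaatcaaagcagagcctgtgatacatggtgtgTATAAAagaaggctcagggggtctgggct
Golt1a: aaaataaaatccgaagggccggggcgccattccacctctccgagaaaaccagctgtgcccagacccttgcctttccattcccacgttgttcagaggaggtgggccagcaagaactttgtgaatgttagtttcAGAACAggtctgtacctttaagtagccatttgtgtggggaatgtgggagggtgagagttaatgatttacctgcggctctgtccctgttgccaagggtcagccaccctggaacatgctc
Ren1 holds TATAAA with its first base 29 bases before the start, and Golt1a holds none. Golt1a holds AGAACA 118 bases before its start, and the windows of Kiss1 and Etnk2 hold neither motif. Of 32851 RefSeq windows of the same length, 12.4% hold TATAAA or its reverse complement and 16.1% hold the hexamer.

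Other genes with large differences toward AP had varied roles. Pnliprp1, a pancreatic lipase related gene, had 1243, 1039.8, 1006 and 837 TPM in AP and 54.4, 80.5, 31.6 and 31.7 TPM in DLP, a 20.8-fold ratio of means and a difference of 4.45 ± 0.25 (adjusted p = 2.95e-07). Olfm4, which encodes olfactomedin 4, a secreted glycoprotein, had 25.8, 29.2, 28.9 and 26.2 TPM in AP and 0.85, 0.71, 0.8 and 0.38 TPM in DLP. Its AP values were within a narrow band, no DLP library reached 1 TPM, and the difference was 4.09 ± 0.11 (adjusted p = 4.16e-09). Mt3, a metallothionein gene, had 278, 317, 270.3 and 306 TPM in AP against 19.5, 22.3, 22.2 and 29.5 TPM in DLP, a difference of 3.60 ± 0.11 (adjusted p = 4.44e-09). Mt2 and Mt1, its neighbours, were higher in AP by 1.46 ± 0.14 and 1.46 ± 0.15. The glutamate receptor subunit gene Grin2d differed by 2.89 ± 0.14 (adjusted p = 8.82e-08), the glycoprotein hormone subunit gene Gpha2 by 2.80 ± 0.13 (adjusted p = 5.74e-08) and the xylosyltransferase gene Gxylt2 by 2.78 ± 0.12 (adjusted p = 4.79e-08). Non-overlap of the lobes was a condition of choosing these 3 genes. Hist2h2aa2 (4.06 ± 0.53, adjusted p = 7.35e-05) has a nearly identical copy, and the short Mir196b hairpin (3.00 ± 0.51, adjusted p = 4.37e-04) was listed at 0 in 3 DLP libraries, so both are uncertain.

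**Figure D2:**
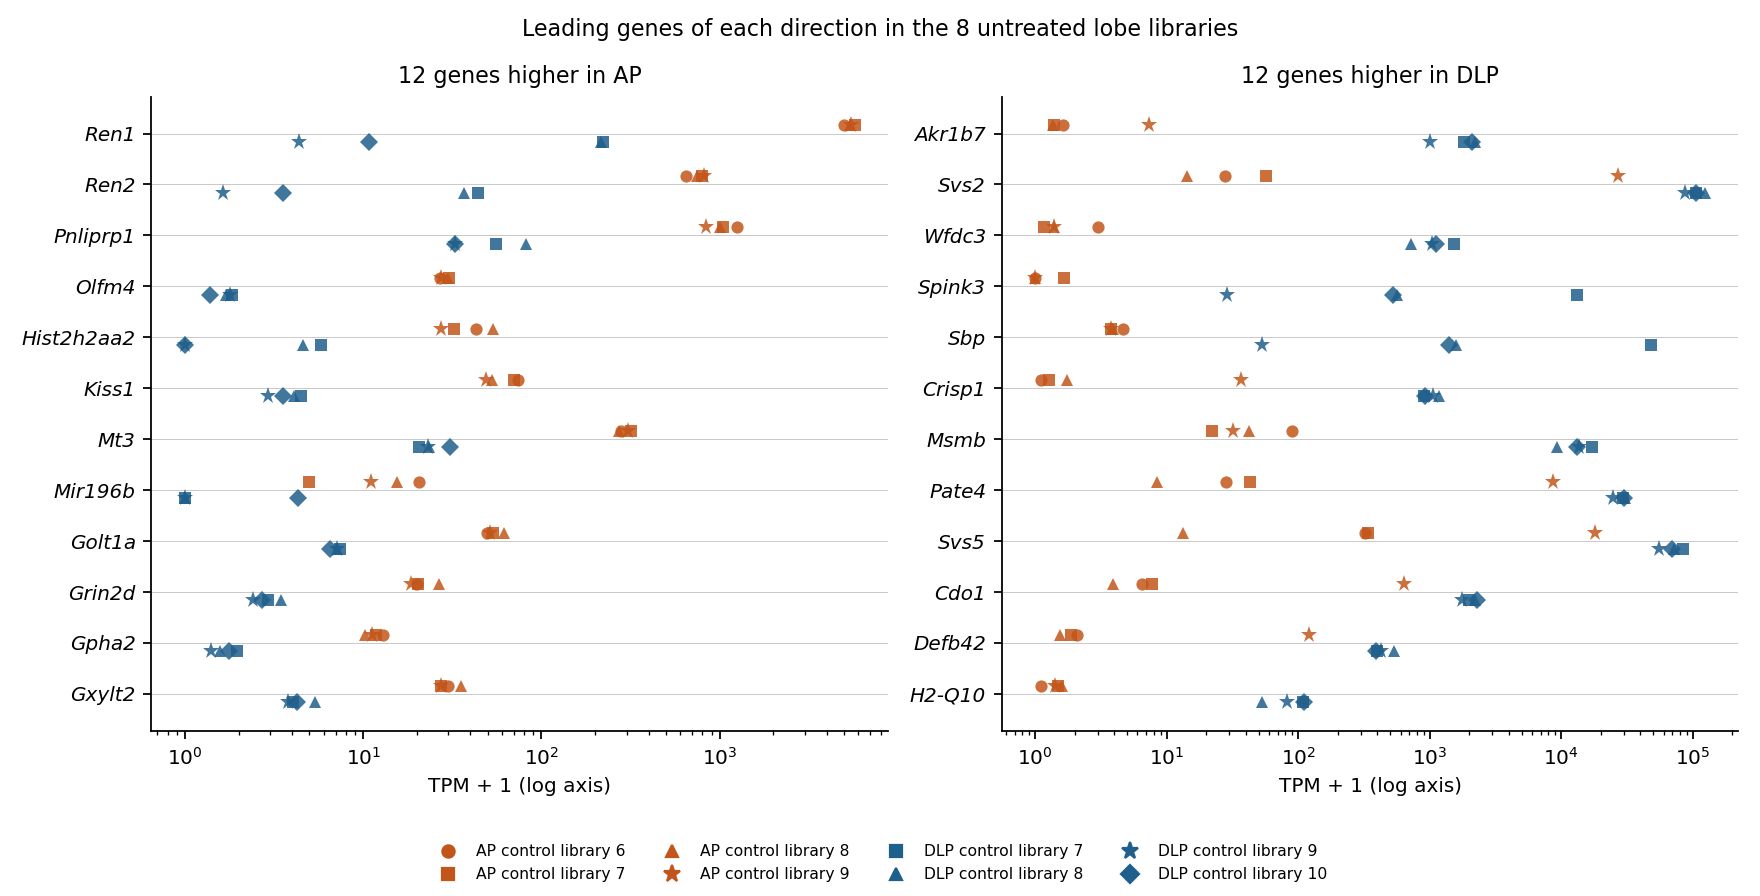
TPM + 1 (x axis, log axis) of the 12 genes with the largest called difference in each direction (y axis) in the 4 AP control libraries (orange) and the 4 DLP control libraries (blue). The genes were chosen among those whose lobes do not overlap. Ren1 and Ren2 spread widely among DLP libraries, Sbp and Spink3 likewise, and AP library 9 (orange star) stands to the right of the other AP libraries for Svs2, Pate4, Svs5, Cdo1, Defb42, Crisp1 and Akr1b7.

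Secretory proteins of the prostate split between the lobes. Of 14 measured genes of this list, 7 were higher in AP and 6 in DLP (5 and 6 after rescaling), with a median of 0.37 beside 0.10 over all genes. Probasin (Pbsn), the androgen-dependent secretory protein whose promoter is used to direct transgenes to prostate epithelium, was among the most abundant transcripts of both lobes. It stood at 57693, 56135, 53368 and 49888 TPM in AP and at 33174, 39244, 52601 and 43654 TPM in DLP, where library 9 reached into the AP range. It did not pass (0.38 ± 0.23, adjusted p = 0.17), and after rescaling the difference was -0.01. Tgm4, transglutaminase 4, had 34692, 34582, 37889.9 and 30405 TPM in AP against 8212, 12757, 13801 and 13258 TPM in DLP. The lobes did not overlap, and Tgm4 was higher in AP by 1.54 ± 0.20 (adjusted p = 8.12e-05), or 1.15 after rescaling. The secretory gene 9530002B09Rik was higher in AP by 0.51 ± 0.15 (adjusted p = 0.0124), a difference of 0.12 after rescaling that no longer passed (adjusted p = 0.42).

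Msmb, which encodes beta-microseminoprotein, had 88.2, 21.2, 40.9 and 30.7 TPM in AP and 17151, 9347, 13579.5 and 13166 TPM in DLP, a difference of -8.34 ± 0.34 (adjusted p = 3.08e-08). Defb50, a beta-defensin gene, had 1915, 1369, 1396 and 1922 TPM in AP and 25342, 15582, 25416 and 23096 TPM in DLP, a difference of -3.75 ± 0.19 (adjusted p = 1.24e-07). Both genes were well above 1 TPM in every AP library, and AP library 9 stood among the other AP libraries for each. Sbp, the spermine binding protein known from the ventral prostate, and Spink3, a serine protease inhibitor of the Kazal type, were uneven between DLP libraries. Sbp had 3.66, 2.78, 2.94 and 2.79 TPM in AP and 47958, 1573, 52.3 and 1395 TPM in DLP, a 917-fold spread within DLP. Spink3 had 13249, 559, 27.8 and 523 TPM in DLP and was listed at 0 in 3 AP libraries and at 0.67 TPM in AP library 7. DLP library 7 was the highest DLP library and DLP library 9 the lowest for both genes. The differences were -8.58 ± 1.46 (adjusted p = 4.47e-04) for Sbp and -8.99 ± 1.32 (adjusted p = 1.67e-04) for Spink3. Whether ventral prostate was taken with some DLP samples was not tested.

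Complement C1r genes were high in AP. C1rb had 3619, 3559.8, 3972 and 3091 TPM in AP and 563, 814, 807 and 735 TPM in DLP, a difference of 2.29 ± 0.13 (adjusted p = 2.66e-07), and its near copy C1ra differed by 1.79 ± 0.11 (adjusted p = 3.94e-07). The lobes did not overlap for either, though reads of the copies may be shared. Of 17 tested complement genes, 3 were higher in AP and 6 in DLP. Cfd, the adipsin gene of fat cells, was lower in AP, with a difference of -4.24 ± 0.75 (adjusted p = 5.83e-04).

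All 10 tested seminal vesicle secretion genes were higher in DLP, with a median of -5.29 (-5.60 after rescaling) beside 0.10 over all genes. Svs2, a semenogelin homologue and a protein of the copulatory plug, had 105075, 123799, 87405 and 106475 TPM in DLP. In AP it had 26.9, 56.3, 13.3 and 26856 TPM, so library 9 was high and the other AP libraries were low. The difference was -9.38 ± 1.82 (adjusted p = 0.00109), and -11.85 without AP library 9. Svs5 had 320.0, 339, 12.4 and 17985 TPM in AP and 83771, 72573, 55816 and 69091 TPM in DLP (-7.43 ± 1.55, adjusted p = 0.00174, or -9.26 without AP library 9). Pate4, also known as seminal vesicle secretory protein 7, had 27.1, 41.7, 7.44 and 8735 TPM in AP and 29529, 30737, 24977 and 30088 TPM in DLP (-8.21 ± 1.62, adjusted p = 0.00118, or -10.38 without AP library 9). Among the DLP libraries these 3 genes varied little, and Svs2 spread 1.42-fold. Svs4 differed in pattern: it had 17745, 5729, 4009 and 4128 TPM in DLP, highest in library 7, and 370.1, 405, 2.31 and 623 TPM in AP, where library 8 was lowest and libraries 6, 7 and 9 were within the same order of magnitude. Its difference was -5.59 ± 1.35 (adjusted p = 0.00418), or -6.34 without AP library 9.

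The Svs genes form a run of neighbours. On chromosome 2, 7 adjacent tested genes, Wfdc15b, Svs2, Svs3b, Svs4, Svs3a, Svs6 and Svs5, were each called and at least 2-fold higher in DLP, with differences from -9.38 to -4.42. The genes at the sides did not pass: Stk4 differed by 0.06 ± 0.09 (adjusted p = 0.553) and Slpi, the secretory leukocyte peptidase inhibitor, by -0.69 ± 0.42 (adjusted p = 0.183). The upstream windows of Svs4, Svs6 and Svs5 are shown because the genes lie in this run and differed in level, Svs6 having 331, 99.9, 111 and 234 TPM in DLP. They come from RefSeq on GRCm38.p6, chr2:164278308-164278557 on the - strand, and chr2:164316501-164316750 and chr2:164332515-164332764 on the + strand, with the same motifs in capitals.
Svs4: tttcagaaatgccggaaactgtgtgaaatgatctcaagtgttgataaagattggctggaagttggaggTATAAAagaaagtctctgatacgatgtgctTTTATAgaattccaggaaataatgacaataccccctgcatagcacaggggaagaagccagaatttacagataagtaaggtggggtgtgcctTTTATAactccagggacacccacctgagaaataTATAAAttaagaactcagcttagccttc
Svs6: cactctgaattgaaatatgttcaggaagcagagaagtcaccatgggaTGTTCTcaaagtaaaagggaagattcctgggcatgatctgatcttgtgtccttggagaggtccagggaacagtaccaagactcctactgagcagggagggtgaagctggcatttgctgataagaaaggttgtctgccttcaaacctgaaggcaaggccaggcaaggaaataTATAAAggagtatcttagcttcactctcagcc
Svs5: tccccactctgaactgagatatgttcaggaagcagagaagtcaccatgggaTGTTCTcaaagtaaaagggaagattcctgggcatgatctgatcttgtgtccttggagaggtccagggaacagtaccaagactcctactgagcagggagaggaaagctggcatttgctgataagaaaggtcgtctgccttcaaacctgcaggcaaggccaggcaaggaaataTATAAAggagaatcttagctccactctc
TATAAA begins 28 bases before the start of Svs4, 32 before that of Svs6 and 28 before that of Svs5, each on the gene's own strand. The window of Svs2, not shown, holds it only farther away, 236 and 205 bases before the start. Of 32851 windows, 2.01% hold TATAAA on that strand with its first base 26 to 45 bases before the start. Among the 8 windows searched here, 4 do. These 8 genes were picked from runs of neighbours after values were seen, and the Svs5 and Svs6 windows are nearly identical. The count therefore carries no test of enrichment. Aligned without gaps at a shift of 4 bases, the Svs5 and Svs6 windows match at 237 of 246 bases (96.3%). Both hold TGTTCT, 199 and 203 bases before the start. Svs5 had 83771, 72573, 55816 and 69091 TPM in DLP beside these values of Svs6. The windows of Svs2 and Svs4 match each other at 32.1% of 246 bases at the best shift tried. Only a limited range of shifts without gaps was tried, so stretches that the windows share at larger shifts are not counted.

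Other leading genes of DLP belong to secretion, defence and metabolism. Akr1b7, an aldo-keto reductase known from the vas deferens, had 0.63, 0.4, 0.37 and 6.28 TPM in AP and 1833, 2202, 1003 and 2080.3 TPM in DLP, a difference of -9.61 ± 0.47 (adjusted p = 9.31e-08). Crisp1, a cysteine-rich secretory protein of the epididymis, had 0.11, 0.27, 0.76 and 35.5 TPM in AP and 906, 1182, 1051 and 928 TPM in DLP (-8.36 ± 0.87, adjusted p = 1.72e-05). AP library 9 stood above the other AP libraries for both, and without it the differences were -10.19 for Akr1b7 and -9.55 for Crisp1. Wfdc3, a whey acidic protein domain gene, had 1.98, 0.16, 0.39 and 0.4 TPM in AP and 1529, 720.4, 1046 and 1124 TPM in DLP (-9.37 ± 0.28, adjusted p = 4.16e-09), and the class I histocompatibility gene H2-Q10 had 0.11, 0.5, 0.61 and 0.41 TPM in AP and 107, 52.5, 81.9 and 110.2 TPM in DLP (-5.94 ± 0.21, adjusted p = 1.47e-08). For Wfdc3 and H2-Q10 AP library 9 did not stand apart. It did for Cdo1, cysteine dioxygenase, with 5.52, 6.69, 2.92 and 642 TPM in AP and 1996, 2219, 1769.8 and 2287 TPM in DLP (-6.77 ± 1.24, adjusted p = 7.59e-04, or -8.47 without AP library 9). The beta-defensin gene Defb42 had 1.09, 0.88, 0.54 and 119.7 TPM in AP and 394, 530.1, 423 and 390.3 TPM in DLP (-6.38 ± 1.10, adjusted p = 5.10e-04, or -7.89 without library 9).

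AP library 9 did not stand at 1 fixed place between the lobes. Among 206 genes at least 4-fold higher in DLP by the fit without AP library 9, averaging 10 TPM or more in DLP, its position was measured as the percent of the way, in TPM, from the mean of AP libraries 6, 7 and 8 to the DLP mean. The position was under 5 for 66 genes (32.0%), 5 to 15 for 34, 15 to 35 for 97 (47.1%) and over 35 for 9. The 15 to 35 group held Svs2, Svs5 and Pate4 of the 10 seminal vesicle genes, with Cdo1, Defb42, the fibroblast growth factor binding gene Fgfbp1 and the transcription factor genes Emx2 and Foxi1. All 5 prostate secretory genes and all 8 neuronal genes among the 206 were under 5, and all 6 adipocyte genes were between 5 and 15. Of the other 7 seminal vesicle genes, 4 were under 5 and 3 between 5 and 15. These groups were formed after values were seen and carry no test. What AP library 9 holds beside AP was not tested further.

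**Figure D3:**
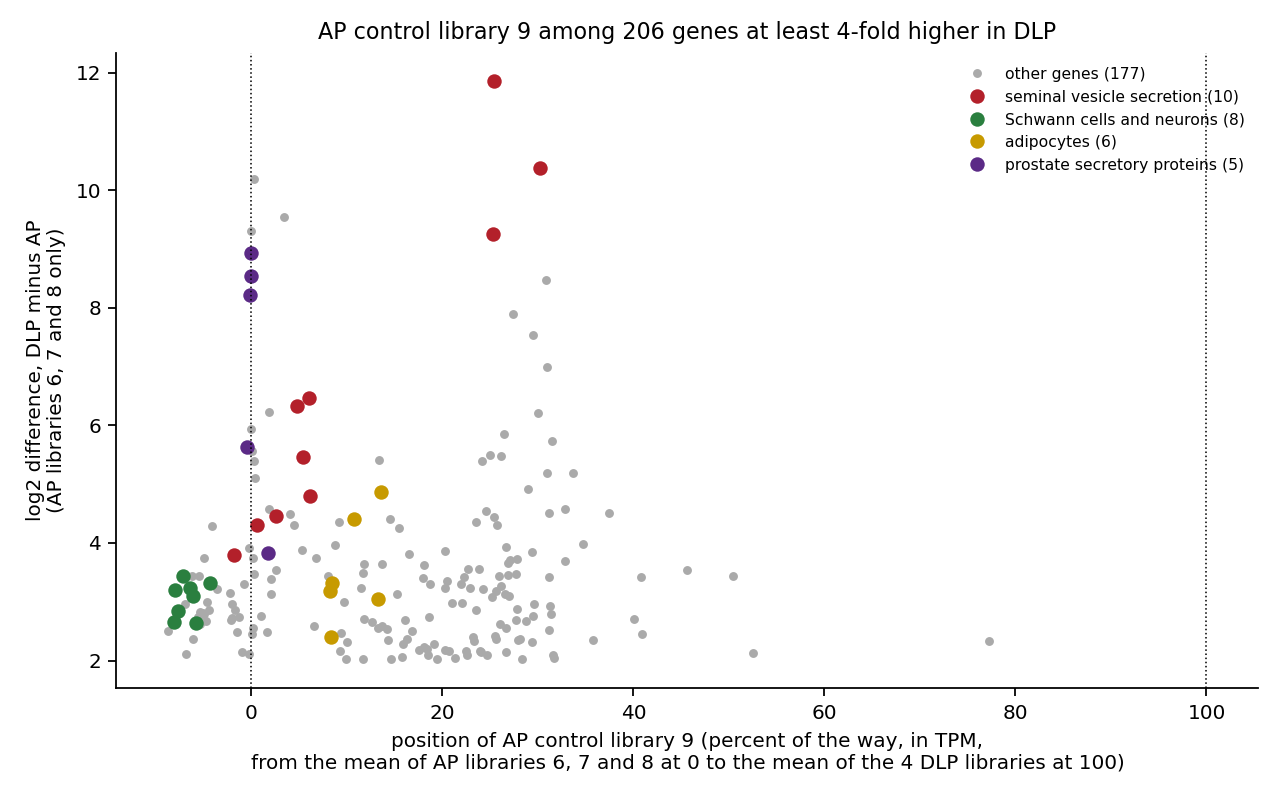
Position of AP control library 9 (x axis, percent of the way from the mean of AP libraries 6, 7 and 8 to the mean of the 4 DLP libraries, in TPM) against the DLP minus AP difference without that library (y axis, log2(TPM + 1)) for 206 genes. Svs2, Svs5 and Pate4 (red, top) lie between 15 and 35, neuronal genes (green) and prostate secretory genes (purple) under 5, and adipocyte genes (yellow) between 5 and 15.

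Epithelial lists differed in direction. Of 15 general luminal genes, 12 were higher in AP and 1 in DLP (8 and 3 after rescaling), with a median of 0.56, and their summed share was 0.650 ± 0.0258% of TPM in AP and 0.381 ± 0.0324% in DLP (exact permutation p = 0.0286, adjusted p = 0.0393). Hoxb13, a homeobox gene of the prostate, had 384, 401, 431 and 378 TPM in AP and 217, 196, 279 and 239 TPM in DLP (0.78 ± 0.10, adjusted p = 7.44e-05), and its lobes did not overlap. Krt8, a luminal keratin gene, was higher in AP by 0.46 ± 0.08 (adjusted p = 3.36e-04), but by 0.07 after rescaling it did not pass. The surface glycoprotein gene Cd24a was higher in AP by 1.06 ± 0.10 (adjusted p = 7.01e-06).

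Genes of proximal luminal cells, the ductal cells near the urethra, were mostly higher in DLP. Of 15 genes, 11 were higher in DLP and 1 in AP (13 and 1 after rescaling), with a median of -1.20. Cldn10, a claudin of epithelial junctions, had 5.09, 3.98, 7.03 and 10.8 TPM in AP and 119, 52.5, 84.9 and 86.3 TPM in DLP (-3.51 ± 0.27, adjusted p = 2.40e-06). Clu, clusterin, had 97.96, 75.7, 109 and 256 TPM in AP and 747, 1121, 841 and 854 TPM in DLP (-2.87 ± 0.29, adjusted p = 1.54e-05), and Lcn2, the iron-binding lipocalin 2, had 17.3, 15.97, 14.96 and 60.2 and 159, 199, 236 and 150.0 TPM (-2.97 ± 0.36, adjusted p = 4.31e-05). AP library 9 was the highest AP library for all 3 genes, and without it their differences were -3.74, -3.23 and -3.43. The proximal markers Krt4 (-0.50 ± 0.23, adjusted p = 0.0843) and Psca (-0.48 ± 0.30, adjusted p = 0.194) did not pass, with DLP libraries 8 and 10 above the other libraries for each. Of 15 basal cell genes, 7 were higher in AP and 1 in DLP. After rescaling 4 and 6 were, beside 9.47% and 54.7% of all tested genes. The basal median was 0.17, and -0.18 after rescaling, beside 0.10 and -0.26 over all genes. Krt5 (-0.05 ± 0.14, adjusted p = 0.795) and Trp63 (-0.03 ± 0.09, adjusted p = 0.774), which define basal cells, did not pass, and Krt14 was higher in AP by 0.56 ± 0.15 (adjusted p = 0.00684), a call lost after rescaling (adjusted p = 0.281). The largest basal difference was that of Itga6, an integrin gene (0.88 ± 0.09, adjusted p = 1.98e-05).

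Genes of steroid metabolism and oestrogen response were called in both directions. Srd5a2, the steroid 5 alpha-reductase that makes dihydrotestosterone, had 14.9, 12.1, 11.2 and 12.7 TPM in AP and 28.4, 19.5, 19.3 and 24.1 TPM in DLP, with every DLP library above every AP library (-0.78 ± 0.13, adjusted p = 3.37e-04). Esr1, oestrogen receptor alpha, had 13.9, 12.9, 20.4 and 13.4 TPM in AP and 7.39, 9.84, 8.75 and 9.59 TPM in DLP, and was higher in AP by 0.69 ± 0.14 (adjusted p = 0.0015). The oestrogen-induced gene Greb1 was higher in AP by 0.54 ± 0.15 (adjusted p = 0.0101), a call lost after rescaling (adjusted p = 0.158). Pgr, the progesterone receptor gene, stayed under the filter, at 1.22 TPM or less in every library. Hsd11b1, which reactivates glucocorticoids, was higher in DLP (-1.11 ± 0.11, adjusted p = 1.15e-05).

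Androgen response genes were called in both directions. Of 26 tested genes, 6 were higher in AP and 17 in DLP (5 and 18 after rescaling), with a median of -0.49. Msmb was the largest, Mme, the membrane endopeptidase neprilysin, had 73.1, 49.5, 78.1 and 66.5 TPM in AP and 342, 239, 267 and 310.2 TPM in DLP (-2.11 ± 0.14, adjusted p = 1.09e-06), and Acsl3, which activates long-chain fatty acids, had 109, 126, 126 and 101 TPM in AP and 21.8, 28.1, 27.8 and 27.9 TPM in DLP (2.09 ± 0.10, adjusted p = 9.34e-08). Of 13 oestrogen response genes, 4 were higher in AP and 5 in DLP. Stat5a, a transcription factor of cytokine and prolactin signalling, was higher in AP by 0.82 ± 0.10 (adjusted p = 5.14e-05). Ccnd1, cyclin D1, had 56.7, 57.1, 49.8 and 156 TPM in AP and 299.9, 305, 303 and 299 TPM in DLP (-2.08 ± 0.28, adjusted p = 9.36e-05), and its 4 DLP values lay close together while AP library 9 stood between the lobes.

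Developmental regulators separated the lobes. Of 39 prostate and urogenital transcription factors, 9 were higher in AP and 20 in DLP (8 and 26 after rescaling). Emx2, a homeobox gene of urogenital development, had 0.18, 0.14, 0.12 and 11.7 TPM in AP and 41.6, 56.5, 37.3 and 57.2 TPM in DLP (-4.53 ± 0.64, adjusted p = 1.35e-04, or -5.40 without AP library 9). Foxi1, a forkhead gene, had 0.2, 0.32, 0.52 and 6.54 TPM in AP and 27.5, 31.1, 19.5 and 28.7 TPM in DLP (-3.73 ± 0.47, adjusted p = 6.26e-05), and Pax2, a paired box gene of the Wolffian duct, was listed at 0 in AP libraries 6, 7 and 8, at 1.13 TPM in AP library 9 and at 5.65, 6.19, 5.77 and 6.63 TPM in DLP (-2.54 ± 0.22, adjusted p = 5.57e-06). AP library 9 stood above the other AP libraries for all 3 genes. Of 13 tested posterior Hox genes, which set position along the body axis, 7 were higher in AP and 4 in DLP (5 and 5 after rescaling). Hoxb8 had 1.05, 1.5, 1.43 and 4.74 TPM in AP and 17.1, 16.8, 13.4 and 16.1 TPM in DLP (-2.53 ± 0.26, adjusted p = 1.59e-05), and Hoxb7 was higher in DLP as well (-1.29 ± 0.13, adjusted p = 1.63e-05). Hoxd13, the most 5′ gene of its cluster, had 45.7, 46.1, 47.8 and 32.3 TPM in AP and 13.8, 16.2, 16.4 and 14.2 TPM in DLP (1.43 ± 0.12, adjusted p = 3.99e-06). Within the HoxB cluster 6 of 9 tested genes were higher in DLP and 2 in AP, Hoxb13 among the latter. Within HoxD 4 of 7 were higher in DLP and 3 in AP, and within HoxA 4 of 8 were higher in AP and 0 in DLP. These clusters were counted after values were seen.

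Among secreted signals, Wnt genes were called in both directions, 11 of 36 higher in AP and 13 in DLP (4 and 20 after rescaling). Over all tested genes the shares were 35.2% and 22.5%, and 9.47% and 54.7% after rescaling, so the rescaled Wnt counts are near those of all genes. Nkd1, an inhibitor that Wnt signalling induces, had 65.4, 59.1, 69.3 and 52.8 TPM in AP and 14.5, 18.1, 13.4 and 17.6 TPM in DLP (1.89 ± 0.11, adjusted p = 3.62e-07). Wnt4, a ligand, was higher in DLP (-1.79 ± 0.14, adjusted p = 2.85e-06), as was Sfrp5, a secreted Wnt antagonist (-1.75 ± 0.20, adjusted p = 2.84e-05). Of 17 fibroblast growth factor genes, 10 were higher in DLP and 1 in AP. Fgf10, the stromal factor needed for prostate budding, had 5.69, 4.79, 4.95 and 5.49 TPM in AP and 8.75, 8.74, 9.08 and 8.97 TPM in DLP (-0.67 ± 0.09, adjusted p = 7.36e-05), with no overlap. Fgfbp1, which releases these factors from matrix, had 0.55, 0.44, 0.13 and 22.97 TPM in AP and 73.1, 67.7, 64.2 and 84.03 TPM in DLP (-4.71 ± 0.76, adjusted p = 3.20e-04, or -5.74 without AP library 9). Etv5, a target of the pathway, differed by -1.17 ± 0.17 (adjusted p = 1.56e-04) and the receptor gene Fgfr3 by -0.69 ± 0.12 (adjusted p = 5.85e-04).

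Of 27 hedgehog and bone morphogenetic protein genes, 4 were higher in AP and 8 in DLP (2 and 20 after rescaling). Bmp3 (-2.05 ± 0.18, adjusted p = 5.34e-06), the receptor gene Bmpr1b (-1.62 ± 0.11, adjusted p = 8.37e-07) and Fst, the follistatin gene (-0.99 ± 0.09, adjusted p = 5.09e-06), were higher in DLP, and Shh passed narrowly (-0.39 ± 0.13, adjusted p = 0.0249), a call lost without AP library 6 or DLP library 8. Retinoic acid genes went both ways, 6 of 20 higher in AP and 14 in DLP. Aldh1a2, which makes retinoic acid, had 23.8, 20.5, 17.1 and 27.2 TPM in AP and 6.91, 9.42, 6.85 and 6.82 TPM in DLP and was higher in AP by 1.44 ± 0.14 (adjusted p = 1.20e-05). Crabp2, a retinoic acid carrier, was higher in DLP (-2.91 ± 0.40, adjusted p = 1.07e-04). Of 13 insulin-like growth factor genes, 9 were higher in DLP, with the receptor Igf1r at -0.82 ± 0.09 (adjusted p = 3.08e-05) and the binding protein Igfbp5 at -0.77 ± 0.13 (adjusted p = 4.35e-04), while the docking protein Irs1 was higher in AP by 1.05 ± 0.09 (adjusted p = 4.22e-06).

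All 17 neuronal and Schwann cell genes were higher in DLP, with a median of -2.76 (-3.08 after rescaling). Tubb3, the neuronal tubulin gene, had 4.83, 1.9, 3.38 and 0.31 TPM in AP and 25.5, 55.6, 57.8 and 46.9 TPM in DLP (-3.85 ± 0.40, adjusted p = 1.57e-05). Snap25, a synaptic vesicle fusion gene, differed by -3.60 ± 0.38 (adjusted p = 1.72e-05) and Uchl1 by -3.51 ± 0.24 (adjusted p = 1.23e-06). DLP library 7 was the lowest DLP library and AP library 9 the lowest AP library for all 3 genes. The 6 tested neuroendocrine genes were all higher in DLP as well, led by the amine-synthesis gene Ddc (-2.95 ± 0.28, adjusted p = 8.65e-06), Scg2 (-2.91 ± 0.26, adjusted p = 6.96e-06) and Syp (-2.47 ± 0.24, adjusted p = 1.13e-05), which neurons also express.

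Of 11 adipocyte genes, 9 were higher in DLP and 0 in AP, with a median of -2.28. Cfd had 0.17, 7.19, 9.79 and 25.6 TPM in AP and 144, 150.0, 63.9 and 248 TPM in DLP, Car3, a carbonic anhydrase of fat and muscle, 0.92, 3.56, 9.68 and 15.6 and 95.7, 101, 46.4 and 179 TPM, and Adipoq, adiponectin, 0, 0.21, 1.64 and 1.83 and 14.9, 13.1, 7.12 and 24.9 TPM. DLP library 10 was highest and DLP library 9 lowest of the DLP libraries for each, and AP library 9 was highest in AP. Their differences were -4.24 ± 0.75, -3.93 ± 0.58 and -3.09 ± 0.38. Of 10 tested skeletal muscle genes, 4 were higher in DLP and 1 in AP. Ckm, muscle creatine kinase, had 15.8, 12.02, 15.4 and 20.1 TPM in AP and 26.2, 99.2, 35.3 and 37.4 TPM in DLP, highest in library 8 (-1.41 ± 0.32, adjusted p = 0.00293).

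Stromal genes leaned to DLP by small amounts. Of 16 smooth muscle genes, 9 were higher in DLP and 0 in AP (16 and 0 after rescaling), with a median of -0.35. Acta2, smooth muscle actin, had 1331, 1213, 983 and 1089 TPM in AP and 1344, 1619, 1651 and 1506 TPM in DLP (-0.41 ± 0.11, adjusted p = 0.00797), and Mylk, myosin light chain kinase, differed by -0.71 ± 0.10 (adjusted p = 1.25e-04). Of 32 fibroblast and matrix genes, 22 were higher in DLP and 1 in AP, with a median of -0.40, among them Tnc, tenascin C (-0.92 ± 0.13, adjusted p = 1.08e-04), the proteoglycan gene Lum (-0.87 ± 0.18, adjusted p = 0.00193) and Vcan, versican (-0.75 ± 0.11, adjusted p = 1.47e-04). Of 14 endothelial genes, 10 were higher in DLP, with Cdh5 at -0.55 ± 0.12 (adjusted p = 0.0028), and 1 in AP, Emcn (0.69 ± 0.13, adjusted p = 0.00101, a call lost after rescaling at adjusted p = 0.0506).

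On TPM as deposited, most interferon response and mucosal defence genes were called higher in DLP, beside 22.5% of all tested genes. Most antigen presentation and macrophage genes were not called on that scale. After rescaling, all 17 antigen presentation genes and 17 of 20 macrophage and dendritic cell genes were called higher in DLP, beside 54.7% of all tested genes. Of 33 interferon response genes, 23 were higher in DLP and 2 in AP (25 and 0 after rescaling), with a median of -0.57. Tgtp1, an interferon-inducible GTPase gene, had 2.07, 3.75, 2.81 and 5.7 TPM in AP and 13.5, 15.7, 17.8 and 7.11 TPM in DLP (-1.66 ± 0.27, adjusted p = 3.67e-04), and Cxcl10, a T cell chemokine, 3.04, 5.49, 2.71 and 4.62 and 10.8, 12.4, 11.4 and 8.12 TPM (-1.26 ± 0.18, adjusted p = 1.55e-04). The DLP libraries were above the AP libraries for both. Iigp1 differed by -1.29 ± 0.31 (adjusted p = 0.00423) with overlapping values. Of 17 antigen presentation genes, 6 were higher in DLP and 0 in AP, with B2m, the class I light chain, at 3374, 4829, 3796 and 5168 TPM in AP and 7483, 6924, 7787 and 6460.3 TPM in DLP (-0.76 ± 0.15, adjusted p = 0.00144) and its regulator Nlrc5 at -1.25 ± 0.20 (adjusted p = 2.53e-04). Ptprc, which all leukocytes express, was higher in DLP (-0.69 ± 0.20, adjusted p = 0.0111), though DLP library 9 overlapped AP. Of 18 listed T and natural killer cell genes, 1 was measured here, Lck (-0.50 ± 0.14, adjusted p = 0.0112), and of 5 tested B and plasma cell genes 1 was higher in each lobe, the DLP call being Igj (-1.10 ± 0.41, adjusted p = 0.0391), which was lost on leaving out any of 6 of the 8 libraries. Of 20 macrophage and dendritic cell genes, 6 were higher in DLP and 1 in AP, Mertk (0.99 ± 0.11, adjusted p = 3.35e-05), a receptor for dying cells that other cell types express as well. Of 13 mucosal defence genes, 9 were higher in DLP and 0 in AP, with the whey acidic protein domain gene Wfdc15b (-4.72 ± 0.57, adjusted p = 4.18e-05) and lactoferrin, Ltf (-2.76 ± 0.33, adjusted p = 4.19e-05), among them.

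Genes of protein synthesis were higher in AP. All 46 ribosomal protein genes were called higher in AP (42 and 0 lower after rescaling), with a median of 0.73 (0.34 after rescaling), and their summed share was 10.5 ± 0.687% of TPM in AP and 6.33 ± 0.512% in DLP (exact permutation p = 0.0286, adjusted p = 0.0393). Rps27a had 2804, 3108, 2689 and 2642 TPM in AP and 1275, 1363, 1685 and 1466 TPM in DLP (0.96 ± 0.11, adjusted p = 2.79e-05). Of 38 genes of the unfolded protein response and secretory pathway, 31 were higher in AP and 2 in DLP. After rescaling 12 and 7 were, beside 9.47% and 54.7% of all tested genes. The list's median was 0.47, and 0.08 after rescaling, beside 0.10 and -0.26 over all genes. The stress transcription factor genes Ddit3 and Atf6 kept their direction, with differences of 1.32 ± 0.21 (adjusted p = 2.52e-04) and 1.10 ± 0.10 (adjusted p = 5.35e-06), and 0.94 and 0.71 after rescaling. Short transcripts ran higher in AP in general: from the shortest to the longest of 4 equal groups of genes by transcript length, the median difference was 0.25, 0.14, 0.07 and -0.01.

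Lists of metabolism with small differences depended on the scale. Over all tested genes, 9.47% were called higher in AP and 54.7% in DLP after rescaling. Medians before and after rescaling were 0.45 and 0.06 for oxidative phosphorylation, 0.12 and -0.27 for citrate metabolism, and 0.26 and -0.11 for cholesterol synthesis. They were 0.17 and -0.21 for polyamine genes and 0.06 and -0.25 for cell cycle genes, beside 0.10 and -0.26 over all genes. Of 45 oxidative phosphorylation genes, 40 were higher in AP and 0 in DLP, but 7 and 9 after rescaling. Cox8a, a subunit of cytochrome c oxidase, had 731, 754, 633 and 649.8 TPM in AP and 309, 353, 395 and 400.1 TPM in DLP (0.93 ± 0.10, adjusted p = 1.90e-05, and 0.54 after rescaling). Citrate metabolism, which the prostate uses to secrete citrate, had 11 of 26 genes higher in AP and 3 in DLP, against 3 and 19 after rescaling, with Got1 (0.88 ± 0.08, adjusted p = 9.74e-06) and Idh1 (0.80 ± 0.10, adjusted p = 5.21e-05) higher in AP on both scales. Cholesterol synthesis had 12 of 24 higher in AP and 4 in DLP, against 1 and 9 after rescaling. Of 15 polyamine genes, 7 were higher in AP and 1 in DLP (5 and 6 after rescaling), led by spermine synthase, Sms (0.81 ± 0.09, adjusted p = 3.35e-05). Of 40 cell cycle genes 3 were higher in AP and 0 in DLP (1 and 10 after rescaling), and Mki67, which marks cycling cells, did not pass (-0.23 ± 0.16, adjusted p = 0.232).

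In the glutathione and redox list and the aquaporin and ion transport list more genes were called higher in DLP than in AP. Of 39 glutathione and redox genes, 22 were higher in DLP and 10 in AP (29 and 3 after rescaling), with a median of -0.42. Gpx3, the secreted glutathione peroxidase, had 444, 299.8, 420.0 and 411 TPM in AP and 1103, 1355, 1332 and 1188 TPM in DLP (-1.67 ± 0.12, adjusted p = 1.89e-06). The glutathione transferase genes Gstm7 (-2.51 ± 0.30, adjusted p = 3.81e-05), Gstm5 (-2.31 ± 0.25, adjusted p = 2.17e-05) and Gsta4 (-2.17 ± 0.21, adjusted p = 1.07e-05) were higher in DLP too, with AP library 9 the highest AP library for each. Of 25 aquaporin and ion transport genes, 16 were higher in DLP and 4 in AP. Fxyd4, a regulator of the sodium pump, had 0.91, 0.49, 0.6 and 2.08 TPM in AP and 26.9, 42.2, 31.1 and 28.2 TPM in DLP (-4.07 ± 0.21, adjusted p = 1.56e-07), and Slc12a2, the sodium, potassium and chloride cotransporter, 7.81, 7.61, 10.3 and 10.7 and 193, 65.98, 83.6 and 86.4 TPM (-3.31 ± 0.26, adjusted p = 2.94e-06). DLP library 7 was the highest for Slc12a2 and for the anion exchanger gene Slc26a4 (-2.70 ± 0.48, adjusted p = 5.88e-04), as for Sbp and Spink3. Of 21 glucose transport and glycolysis genes 10 were higher in DLP and 6 in AP, with hexokinase 2, Hk2 (-1.74 ± 0.13, adjusted p = 2.32e-06), and the glucose transporter gene Slc2a12 (-1.72 ± 0.17, adjusted p = 1.12e-05) among the former. Of 21 zinc transporter and metallothionein genes, 13 were higher in AP and 4 in DLP (6 and 7 after rescaling). Among 38 proteases and inhibitors 11 were higher in AP and 18 in DLP, Timp4, an inhibitor of matrix proteases, at -2.73 ± 0.33 (adjusted p = 4.14e-05) and Spink10 at -2.88 ± 0.39 (adjusted p = 1.05e-04).

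**Figure D4:**
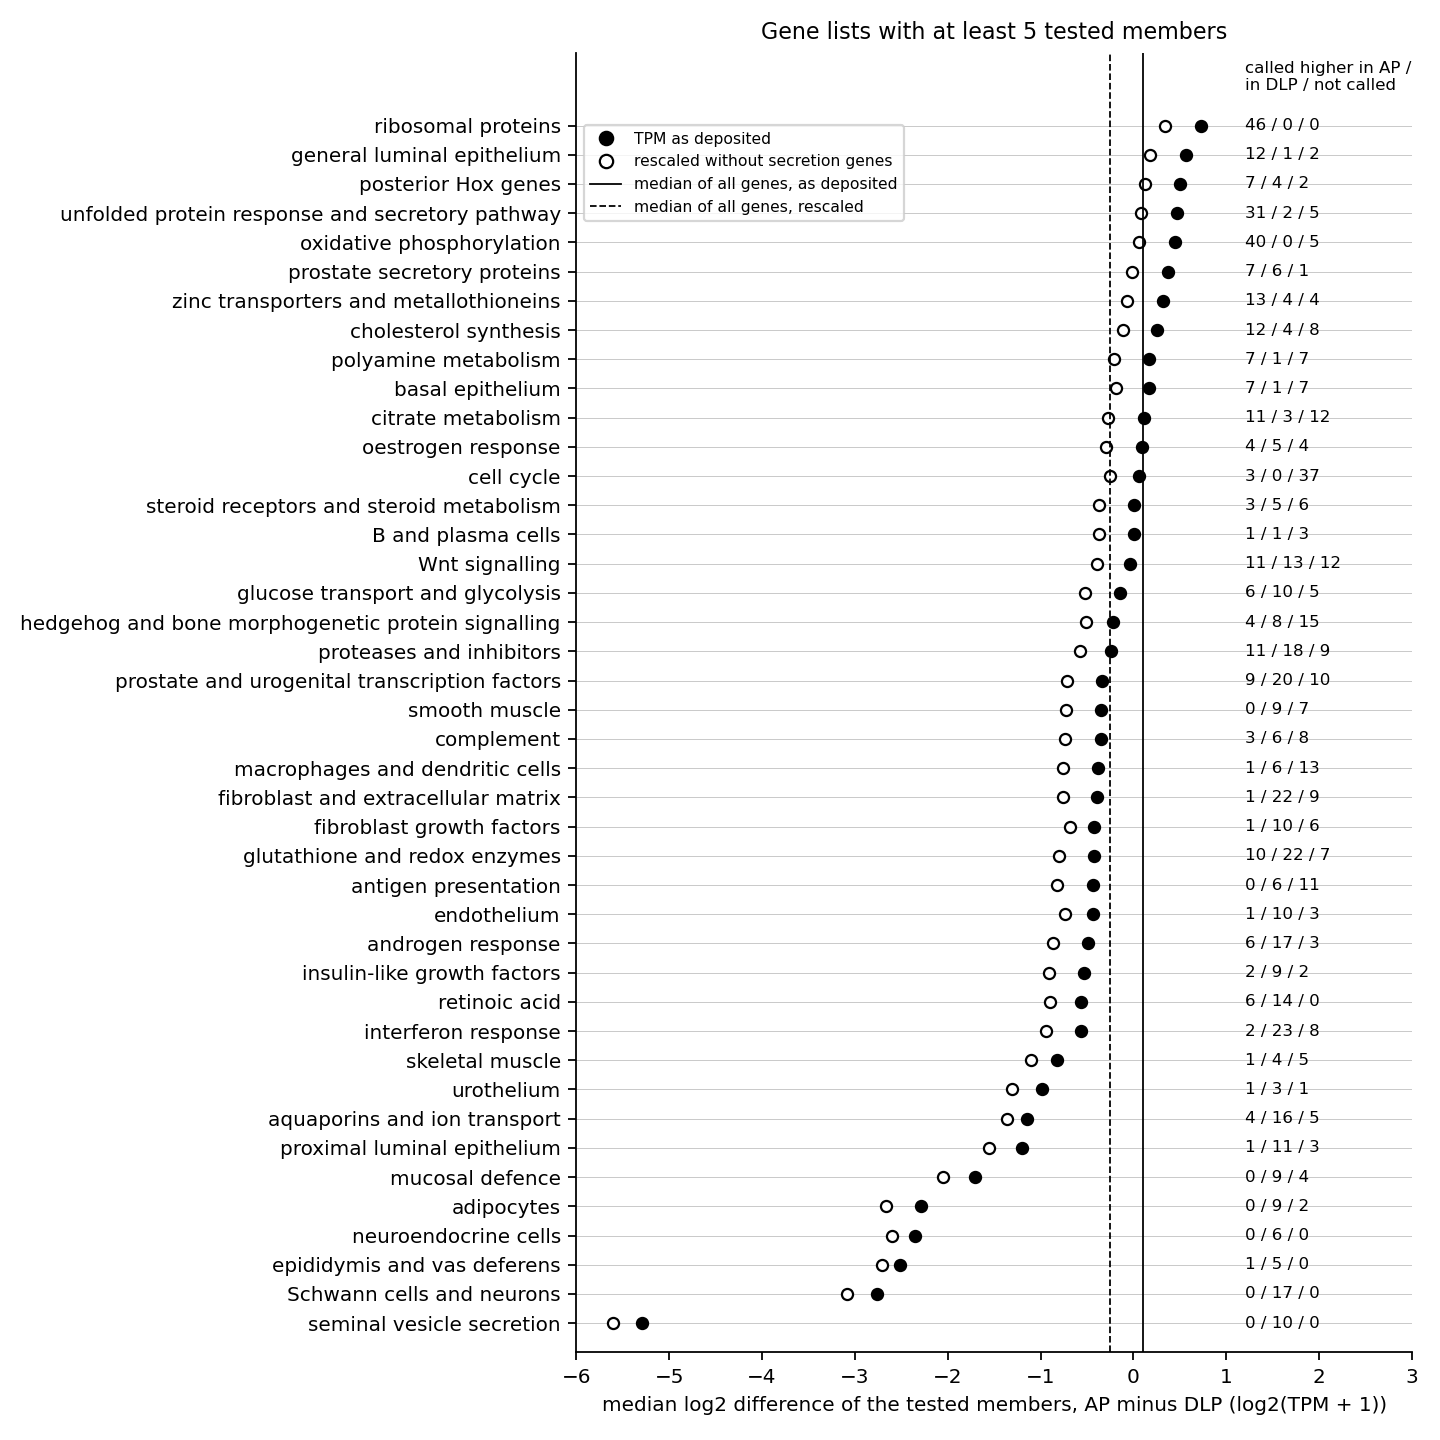
Median log2 difference, AP minus DLP (x axis), of the tested members of each gene list with at least 5 of them (y axis), on TPM as deposited (filled) and after rescaling without the secretory genes (open), with the median of all genes on each scale (lines) and the counts of members called higher in AP, higher in DLP and not called on TPM as deposited (right). Seminal vesicle secretion, neuronal, epididymis, neuroendocrine and adipocyte genes lie farthest toward DLP, and ribosomal protein and luminal genes farthest toward AP.

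Beyond Ren1 and Svs, other neighbouring genes were called in the same direction. Of 12781 tested genes placed in RefSeq's order, 5 runs of at least 3 adjacent genes were called 2-fold higher in AP and 17 in DLP. On chromosome 8, 7 beta-defensin genes from Defb50 to Defb13 were higher in DLP by differences from -4.44 to -2.18, and on chromosome 14 a run of 5 held Defb48, Defb43, Defb30 and Defb42. All 15 tested Defb genes were higher in DLP. A run of 5 on chromosome 1 held the G protein regulators Rgs2, Rgs13 and Rgs1, the phospholipase gene Pla2g4a and Ptgs2, the inducible prostaglandin synthase gene. Ptgs2 had 0.73, 0.74, 1.12 and 1.1 TPM in AP and 83.7, 107, 47.8 and 83.8 TPM in DLP (-5.36 ± 0.20, adjusted p = 1.64e-08), and AP library 9 was not apart from the other AP libraries. The fatty acid desaturase genes Fads1 (-1.11 ± 0.10, adjusted p = 6.60e-06), Fads2 (-1.91 ± 0.14, adjusted p = 1.75e-06) and Fads3 on chromosome 19 were higher in DLP. Toward AP, a run on chromosome 14 held the ribonuclease genes Rnase4 (1.45 ± 0.12, adjusted p = 4.17e-06) and Ang (2.29 ± 0.08, adjusted p = 1.64e-08) and a run on chromosome 11 held Ormdl3, Gsdma3 and Gsdma, the last a gasdermin with 921, 937, 1014 and 841 TPM in AP and 205, 292, 357 and 315 TPM in DLP (1.69 ± 0.14, adjusted p = 4.45e-06). The runs, the genes beside them (Stk4 and Slpi) and the Defb family were looked at after values were seen, and near-identical family members may share reads.

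The lobe difference was then set beside the same difference in T+E2-treated lobes, 8 libraries that the untreated comparison does not use. There limma called 8460 of 12946 genes (65.3%), 5571 higher in AP (43.0%) and 2889 higher in DLP (22.3%), and 7460 genes did not overlap (57.6%). Of 4516 genes higher in AP without treatment and tested in both, 4329 (95.9%) had the same sign after T+E2 and 3739 (82.8%) were called the same way, with 50 called the opposite way. Of 2868 such genes higher in DLP, 2589 (90.3%) had the same sign, 2138 (74.5%) were called the same way and 112 the opposite way. Of the 2-fold genes tested in both, 171 of 224 higher in AP and 742 of 814 higher in DLP were called the same way. Both comparisons are on TPM as deposited. Seminal vesicle genes made up 15.3% to 26.7% of TPM in the DLP T+E2 libraries and 0.00658% to 9.92% in the AP T+E2 libraries. The fixed total thus lowers other genes in DLP in both comparisons, and unevenly among the treated AP libraries as well. With median-of-ratios rescaling, 3696 genes were called higher in AP after T+E2. The shared signs were not counted after rescaling. The difference between the untreated and the treated lobe difference was not tested here.

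Ren1 was higher in AP in the treated libraries too. Its values after T+E2 were 5696, 201, 3354 and 3740.1 TPM in AP and 11.7, 2.34, 65.5 and 123 TPM in DLP, a difference of 6.32 (adjusted p = 0.00203), with 1 AP library far below the other 3 and still above every DLP library. Kiss1 (3.81, adjusted p = 5.58e-05) and Golt1a (2.12, adjusted p = 1.00e-05) were higher in AP as well, and so was Tgm4 (1.98, adjusted p = 1.30e-05). Sbp had 3519.8, 20394, 44602 and 70.5 TPM in the treated DLP libraries, again uneven, and 0.12 TPM or less in treated AP. Msmb differed by -3.00 (adjusted p = 1.89e-04), with 2630.5 ± 1879 TPM in AP and 18205 ± 3649 TPM in DLP. Defb50 did not pass after T+E2 (-0.13, adjusted p = 0.583), with 36312 ± 7414 TPM in AP and 39370.3 ± 4083 TPM in DLP. Neither did the uroplakin gene Upk1a, with 22.04, 20.7, 21.5 and 18.9 TPM in untreated AP and 176, 126, 137 and 156 TPM in untreated DLP (-2.77 ± 0.10, adjusted p = 1.64e-08), and 633 ± 184 TPM in AP and 542 ± 75.7 TPM in DLP after T+E2 (0.19, adjusted p = 0.381).

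Gpx3 and 9530002B09Rik had opposite directions. Gpx3 was higher in DLP without treatment and higher in AP after it, with 34674 ± 3160.4 TPM in AP and 22416 ± 2444 TPM in DLP (0.63, adjusted p = 0.00802). 9530002B09Rik had 871 ± 117 TPM in AP and 2804 ± 1269 TPM in DLP after T+E2 (-1.58, adjusted p = 9.19e-04). Svs2, with 159, 11.5, 52489 and 36039 TPM in treated AP and 126397, 99975, 78309 and 141308 TPM in treated DLP, differed by -6.28 (adjusted p = 0.0389), 2 of the treated AP libraries being high as AP control library 9 was. Among lists, all 17 neuronal genes and all 15 proximal luminal genes were higher in treated DLP, 45 of 46 ribosomal protein genes were higher in treated AP, and 6 of 10 seminal vesicle genes were higher in treated DLP and 1 in treated AP.

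**Figure D5:**
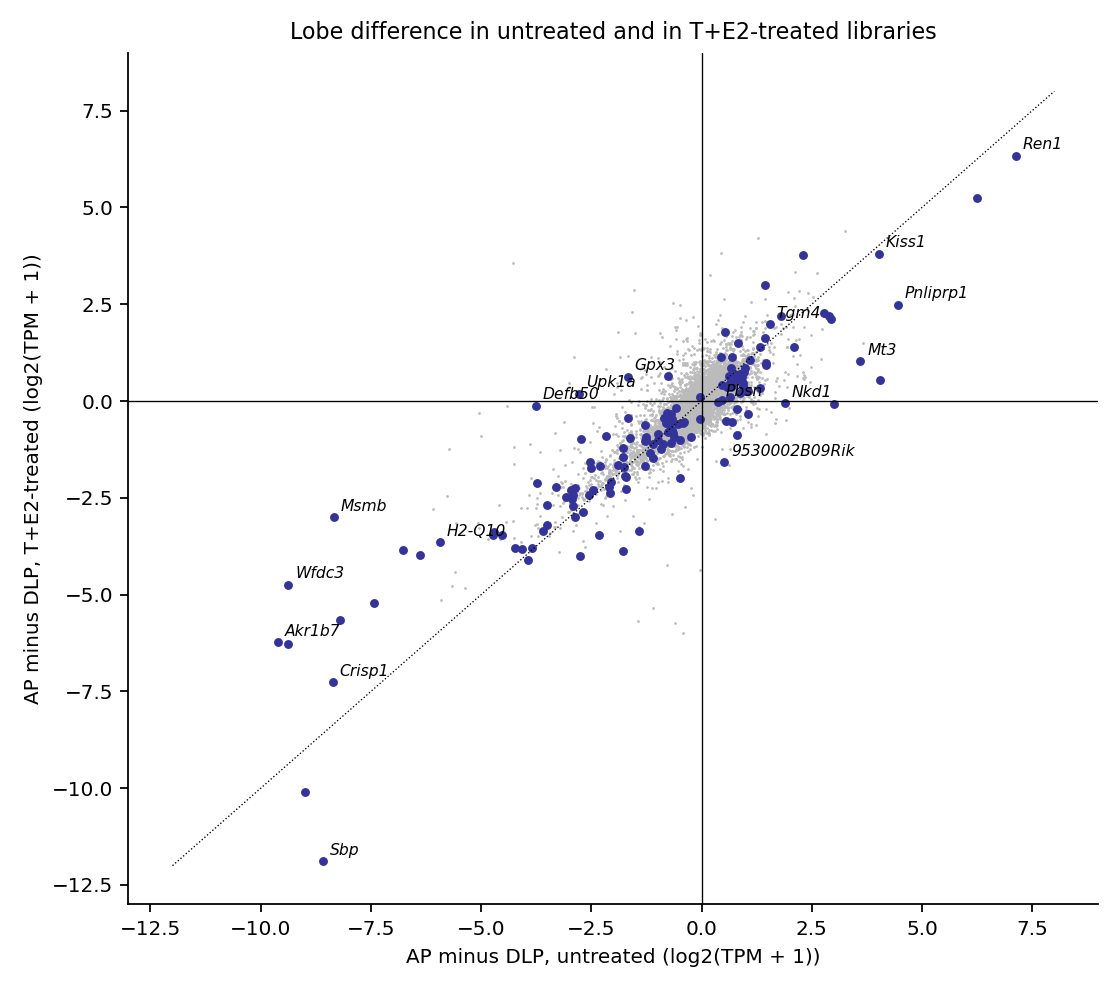
Lobe difference, AP minus DLP on log2(TPM + 1), in the untreated libraries (x axis) and in the T+E2-treated libraries (y axis) for 12756 genes tested in both (grey), with 149 named genes in blue, the dotted line marking equal values. Most named genes lie in the same quadrant on both axes, Ren1 and Sbp at the ends, while Defb50 and Upk1a lie near 0 after T+E2 and Gpx3 above it.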

How the data were processed

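RNA-seq values were the TPM (length-corrected transcript abundances on a fixed total) that the authors deposited for 13780 genes in 32 libraries. Per the submitters' processing notes, mm9, STAR, RSEM, edgeR and FastQC were used. Their versions, roles and order are not given in the sources used here. Per the labels, the libraries were made from total RNA. The deposited TPM of each library sum to 994133 to 997961, so depth is unknown and no counting interval can be given.

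The filter kept 12865 of 13780 genes, those reaching 1 TPM in 4 or more of the 8 libraries. Limma 3.58.1 (R 4.3.3) was run on log2(TPM + 1) with a mean-variance trend, and p-values were adjusted by Benjamini-Hochberg over all tested genes. A fold change on that scale understates the change of low genes. A gene was called at an adjusted p of 0.05. Summed shares of TPM were compared by exact permutation of libraries, two-sided, over 70 assignments. Promoter sequences and gene order came from RefSeq on GRCm38.p6. The deposited table holds no coordinates. The limma script was tested on simulated data, and tables and plots used pandas 2.3.3 and matplotlib 3.10.9.

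Named genes were the 12 largest in each direction that did not overlap between lobes, averaged 10 TPM or more in the higher lobe and were called without AP library 9, up to 3 called members of each of 44 gene lists, and 25 fixed genes. Predicted and RIKEN names were left out of the first set. The 8 libraries were taken by their labels, but gene lists, fixed genes and tests were chosen with earlier results of these data known. Alternatives were other pseudocounts, filters and scalings, other limma settings, a replicate block, and leaving out each library. No mitochondrially encoded gene is in the table, so rescaling left out secretory genes only. Some named genes are not reported here.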

Additional observations from a re-analysis of the deposited data

Results flagged for a closer look

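In 47 of 322 groups of 4 libraries, 1 library stood apart from the other 3 by Dixon's test, which chance gives in about 1 of 20 groups. AP library 9 was the library in 22 of them. In TPM, it stood apart for Akr1b7 (6.28), Svs2 (26856), Crisp1 (35.5), Pate4 (8735), Svs5 (17985), Cdo1 (642), Defb42 (119.7), Lcn2 (60.2), Pax2 (1.13), Wfdc15b (26.99), Gstm7 (13.5), Gstm5 (47.96), Ccnd1 (156), Hoxb8 (4.74), Hoxd13 (32.3), Emx2 (11.7), Foxi1 (6.54), Fgfbp1 (22.97), Crabp2 (4.87) and Spink10 (2.15). It also stood apart in the share of seminal vesicle secretion (5.42%) and of prostate secretory proteins (10.4%). For Hoxd13 and the prostate secretory share it was the lowest AP library, and for the others the highest.

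Among the DLP libraries, library 7 stood apart in TPM for Spink3 (13249), Sbp (47958), Gstm7 (27.4), Slc12a2 (193), Slc26a4 (22.8), Acsl3 (21.8) and Greb1 (2.19). It was high for Spink3, Sbp, Slc12a2 and Slc26a4 and low for Gstm7, Acsl3 and Greb1. DLP library 8 stood apart, above the others, for Upk3a (15.8), Upk2 (13.7), Casq1 (19.5), Mb (64.5), Ckm (99.2), Ddit3 (36.4) and Aldh1a2 (9.42) TPM and in the share of skeletal muscle genes (0.106%). DLP library 9 stood apart for Igj (3.77) and Mt2 (1882) TPM, and DLP library 10 for Mir196b (3.29) and Wfdc15b (109) TPM. In AP, library 6 stood apart for Wfdc3 (1.98) and Lum (32.9) TPM, library 7 for Spink3 (0.67) and Derl3 (131) TPM and library 8 for Stat5a (265) and Esr1 (20.4) TPM.

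For 9 genes with at least 2-fold differences and 4 named genes, all untreated libraries of a lobe were above those of the other lobe and all T+E2-treated libraries the opposite way. Without treatment higher in DLP, these genes were higher in AP after T+E2: Sva by 3.57, Syn2 by 1.13, Ncald by 1.77, Cyp3a57 by 1.15, Atp4a by 1.16, Gm4956 by 2.29, Ctse by 2.87, Slc2a3 by 1.76, Cyp3a59 by 1.13, Igfbp5 by 0.64 and Gpx3 by 0.63 on the log2(TPM + 1) scale. Top2a and 9530002B09Rik were higher in AP without treatment and lower there after T+E2, Top2a (-0.87) and 9530002B09Rik (-1.58). The difference between treated and untreated lobes was not tested. Sva, Syn2, Ncald, Cyp3a57, Atp4a, Gm4956, Ctse, Slc2a3 and Cyp3a59 were chosen after their values were seen.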

How the results depend on the processing

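Of 146 called named genes, 125 were called under every alternative whose filter kept them, and 141 whichever library was left out. The filter of 5 TPM kept 137 of the 152 tested named genes, so the others were not tested there. The 5 lost were Igj, Derl3, Mb, Tyms and Shh. Rescaling without secretory genes gave 1218 genes higher in AP and 7040 in DLP, and 111 and 1392 at 2-fold. With AP library 9 also left out, chosen after seeing the data, these were 1109, 6746, 122 and 1485. A pseudocount of 5 gave 155 and 374 at 2-fold, which its construction lowers. A filter of 5 TPM gave 1866 genes higher in DLP, 538 at 2-fold, from fewer genes tested. Of calls, 61.0% were higher in AP as deposited, 14.7% after rescaling, 51.1% after median-of-ratios, 70.2% with the 5 TPM filter and 51.3% with the length trend removed. With T+E2, median-of-ratios gave 3696 higher in AP, the 5 TPM filter 1853 in DLP and 541 at 2-fold, and a pseudocount of 5 gave 351. Leaving out 1 library gave 6674 to 7271 calls.

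Signs changed for genes that were not called: Pbsn (-0.0086 rescaled), Krt5 (-0.164 to 0.0888 on leaving out 1 library, above 0 without AP library 8 or DLP library 9), Trp63 (0.0175 with the replicate block, -0.0981 to 0.0153 on leaving out 1 library, above 0 without AP library 6 or DLP library 9) and Mki67 (0.00399 with library weights). The cause was not tested. Same-numbered libraries deviated together with r of 0.21, 0.17 and -0.10 for 7, 8 and 9, against -0.25 to 0.11 between differently numbered libraries. The values for 7 and 8 were thus above those of every differently numbered pair. The labels do not say whether shared numbers mark pairs, and the main fit did not pair them. A replicate block gave 6397 calls, and 10 named genes lost theirs. Only numbers 7, 8 and 9 are in both lobes, so in that fit the lobe difference rests on 3 pairs. AP library 6 and DLP library 10 add nothing to it. TPM keep no depth, so precision at low values is unknown.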
